A study of Saccharomyces cerevisiae with 12 samples.

Results

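The 37 genes described here encode the sulfur amino acid pathway of the budding yeast Saccharomyces cerevisiae: the uptake and reduction of sulfate, the synthesis of homoserine, methionine and cysteine, the recycling of S-adenosylmethionine (SAM), the permeases for sulfur compounds, and the transcriptional regulators of the pathway. They were chosen by symbol: a gene was a member if a probe set on the array was annotated with that symbol alone. The list of symbols, like that of the linked genes below, was drawn up with earlier results of these data known. Shares of members set beside those of all genes are therefore descriptive. All 37 had such a probe set and all passed the filter on dim signals, out of 5656 genes with a probe set of their own and 5368 that passed the filter. Transcript levels had been measured on 12 one-colour Affymetrix YG_S98 arrays, 2 for each of 6 groups. Wild-type yeast was set beside the TFIIH mutants C403A and C406A, each named after its amino acid substitution. TFIIH is a general transcription factor whose helicases also serve nucleotide excision repair. No label says which subunit carries the substitutions, which from knowledge of the study is Ssl1. Cells of each strain were either left untreated or exposed for 30 minutes to methyl methanesulfonate (MMS), an agent that methylates DNA, at 0.03%. The strain background, other alleles, growth medium and any methionine in it are not given in the sources used here.

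Yeast takes up sulfate through membrane permeases, activates it with ATP and reduces it in steps to sulfide, which is joined to a carbon chain made from homoserine to give homocysteine. Homocysteine is methylated to methionine, exchanged with cysteine through cystathionine, or regenerated from SAM, the main methyl donor of the cell. Most genes of this pathway are switched on by the activator Met4, which is brought to DNA by Cbf1, Met28 and the zinc-finger proteins Met31 and Met32 and is held in check by the ubiquitin ligase subunit Met30 when sulfur compounds are plentiful.

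Values below are normalized intensities (quantile normalization of the deposited signals) and, for changes, log2 differences with the standard error of a limma fit to all 12 arrays. The threshold for passing was a p under 0.05 after Benjamini-Hochberg adjustment over the 5368 tested genes. No label gives the cultures behind the arrays of a group, so a p-value here reflects the spread between these samples alone, and that spread may be technical. Deposited array medians ran from 184 to 254 on untreated and from 227 to 310.2 on MMS arrays, so a change is a change relative to the other genes of an array, and the number of arrays limits its precision. The arrays came from 1 chip lot and were scanned on 1 day, strain after strain, so strain and scan order cannot be told apart. SSL1 itself was at 1734 and 1697 in untreated wild type, at 4840.2 and 5021 in C403A and at 3691 and 3485 in C406A. With MMS it was at 1757 and 1607, at 4939 and 5117 and at 4038 and 3389 in the same order. In a comparison of a mutant with wild type, the substitution and the SSL1 transcript level therefore cannot be told apart. MET17, which some laboratory strains lack, gave 5109.8 to 6736 on every array, so its transcript was present in all of them.

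Treated and untreated cells were compared within each strain to ask how alkylation damage changes the pathway. In wild type 19 of 37 members rose with MMS and 2 fell, against 19.1% of all tested genes that rose and 13.8% that fell. In C403A 15 rose and 1 fell (all genes 8.42% and 7.13%), and in C406A 19 rose and 1 fell (all genes 12.7% and 11.2%). The median log2 change of the members was 0.33 in wild type, 0.16 in C403A and 0.24 in C406A, where the median of all genes was 0.02, 0.00 and 0.00. The strains share no arrays in these comparisons. The fit, however, gave each gene the same standard error in every strain, estimated from all arrays. Calls of a gene in several strains are therefore not independent. In each of the 3 strains 14 members rose: MET1, MET2, MET3, MET14, MET16, MET17, MET22, MET28, MET32, STR3, CYS4, MUP3, SUL2 and HOM3. Over all genes 5.81% did so. MET31 fell in each of the 3, as did 3.91% of all genes, and 14 members passed in no strain. Averaged over the strains, 25 rose and 2 fell, MET31 and SAM1 (all genes 25.2% and 22.2%). Called in this mean and in no single strain were MET8, MET10, MET13, STR2 and SAM4, upward, and SAM1, downward. Of these only the MET13 call was kept under all other settings and without any 1 array. Both treated arrays lay above both untreated arrays for 35.8%, 28% and 34.4% of all genes in wild type, C403A and C406A. They lay below for 31.2%, 28% and 32.8%. Among the 37 members this held for 27, 22 and 27 upward and 4, 1 and 5 downward. Such a separation within a strain, given below for single genes, is therefore weak evidence alone. In bulk RNA, fewer cells expressing a gene and less of its RNA per cell cannot be told apart.

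Rises of MET2, MET3, MET16, STR3 and SUL2 passed in every strain under all 9 other settings of the processing and without any 1 of the arrays. MET2 and MET28 stood near the top of all 5368 genes when these were ranked from the largest rise to the largest fall. MET2 was at rank 22 in wild type, 10 in C403A and 14 in C406A, and MET28 at rank 89, 9 and 10. Scaling shifts all genes together: with the values as deposited the median of all genes with MMS was 0.24, 0.27 and 0.43 in wild type, C403A and C406A, and after scaling to the hybridization controls -0.09, -0.12 and 0.25. The member medians then stood at 0.51, 0.45 and 0.66, and at 0.18, 0.04 and 0.48, above the median of all genes in each case. Rises made up 90.5%, 93.8% and 95% of the member calls and 100% of them in each strain with the values as deposited. Among all genes called in wild type the share of rises was 58%, against 91.9% with the deposited values and 38.6% after scaling to those controls. In the same order it was 54.1%, 97.8% and 36% in C403A and 53.1%, 98.6% and 93.8% in C406A. With the deposited values the 100% of the members in the mutants was therefore near the share of all genes. Fewer members passed on the hybridization controls in wild type (10) and C403A (8), in C403A with the compared groups alone (6) or without either of its MMS arrays (10), and in C406A without its untreated array 1 (12).

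**Figure D1:**
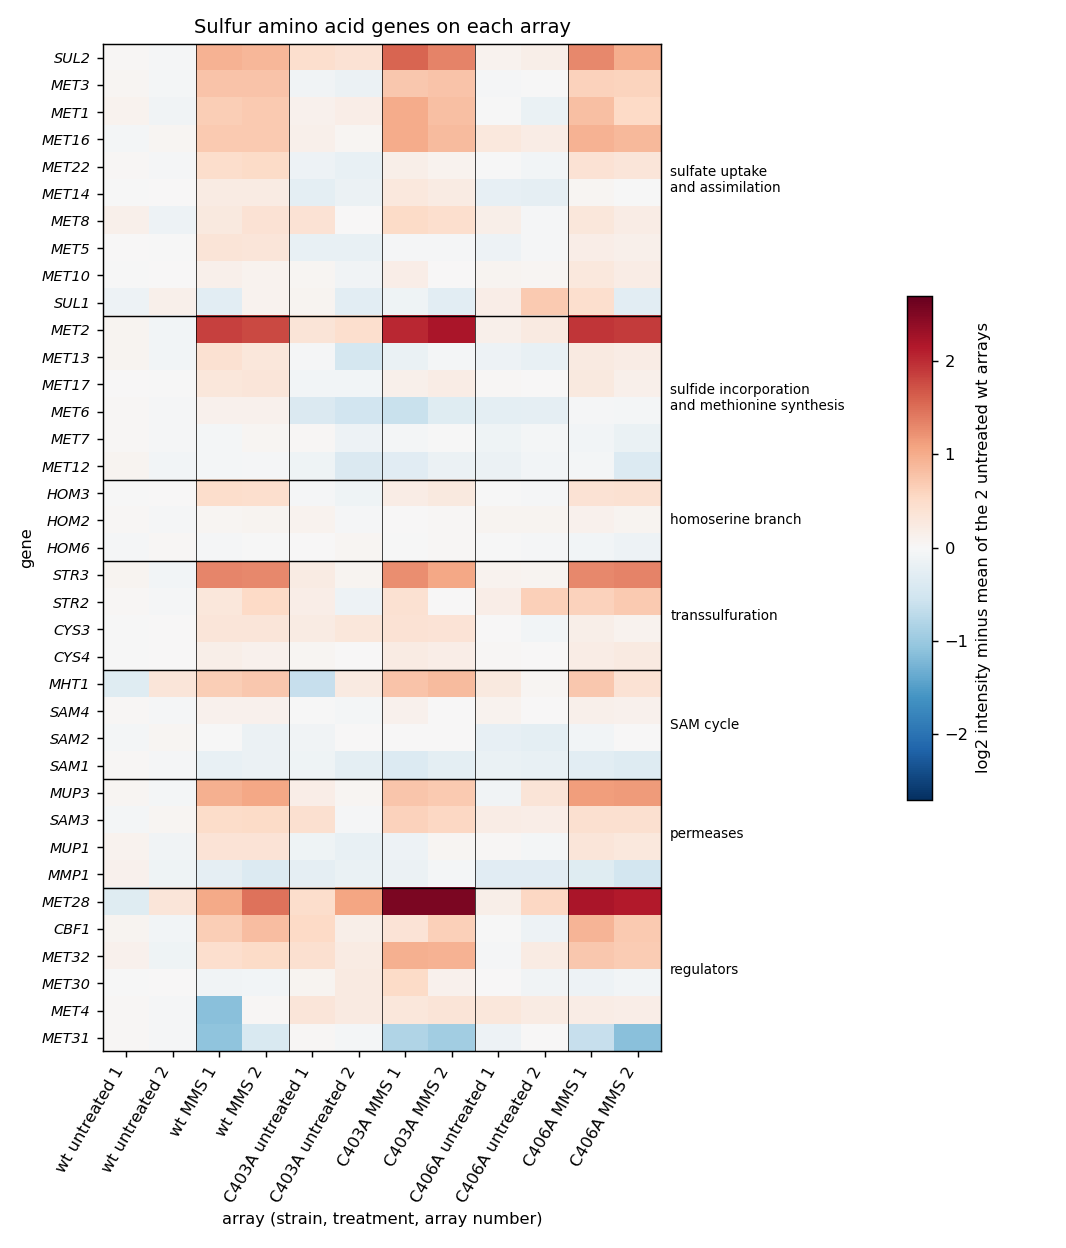
Heat map of the 37 genes (rows, by role) on the 12 arrays (columns); the colour is log2 normalized intensity minus the mean of the 2 untreated wild-type arrays, with red higher. MET2, MET28, STR3, SUL2 and MUP3 are red on all MMS arrays, MET31 is blue on them, and HOM2, HOM6 and MET7 stay near white.

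Sulfate uptake and assimilation rose broadly. Of 10 genes, 7 rose in wild type, 6 in C403A and 7 in C406A (all genes 19.1%, 8.42% and 12.7%). In the mean of the strains 9 rose (all genes 25.2%). SUL2 (YLR092W) went from 259 and 251 to 490.0 and 477 in wild type, from 347 and 332 to 762 and 648 in C403A and from 272 and 284 to 625 and 506 in C406A. SUL2 encodes a high-affinity sulfate permease, and its treated arrays lay above its untreated arrays in every strain, with log2 changes of 0.92 ± 0.11, 1.05 ± 0.11 and 1.02 ± 0.11 (adjusted p = 0.000326, 0.000526 and 0.000347). SUL1, the other sulfate permease gene, was at or under the floor of 34.5 on 4 of 12 arrays and passed in no strain (-0.09 ± 0.28, -0.10 ± 0.28 and -0.35 ± 0.28, adjusted p = 0.836, 0.87 and 0.389).

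The enzymes that activate sulfate followed. MET3 (YJR010W) went from 1274 and 1185 to 2102 and 2082 in wild type, from 1148 and 1109 to 2045 and 2105 in C403A and from 1210.4 and 1218 to 1886 and 1851 in C406A. MET3 encodes ATP sulfurylase, which starts the pathway inside the cell, and its groups did not overlap (0.77 ± 0.05, 0.88 ± 0.05 and 0.62 ± 0.05, adjusted p = 1.93e-05, 2.15e-05 and 0.000128). MET14 (YKL001C) went from 1584 and 1614 to 1859 and 1874 in wild type, from 1329 and 1438 to 1939.5 and 1851 in C403A and from 1379 and 1348 to 1659 and 1578 in C406A. This adenylylsulfate kinase gene rose less, by 0.22 ± 0.06, 0.45 ± 0.06 and 0.25 ± 0.06, with treated above untreated arrays in each strain. MET16 (YPR167C) went from 393 and 424 to 665 and 665 in wild type, from 448 and 426 to 818 and 738 in C403A and from 499 and 471 to 784 and 753 in C406A. MET16, the phosphoadenylylsulfate reductase gene, rose by 0.70 ± 0.08, 0.83 ± 0.08 and 0.66 ± 0.08 (adjusted p = 0.000211, 0.000256 and 0.000493). MET22 (YOL064C) went from 1177 and 1125 to 1596 and 1644 in wild type, from 1045 and 1007 to 1288 and 1228 in C403A and from 1150.2 and 1099 to 1511 and 1449 in C406A. The Met22 phosphatase clears the adenosine bisphosphate that the reductase step leaves behind, and its gene rose by 0.49 ± 0.06, 0.29 ± 0.06 and 0.40 ± 0.06.

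Sulfite reductase is a complex of Met5 and Met10 that needs sirohaem, made by Met1 and Met8. MET1 (YKR069W) went from 516 and 446 to 758 and 788 in wild type, from 520.0 and 546 to 959.6 and 839 in C403A and from 474 and 424 to 837 and 697 in C406A. The rise of MET1 was 0.69 ± 0.11, 0.75 ± 0.11 and 0.77 ± 0.11 (adjusted p = 0.00165, 0.00283 and 0.00147), with no overlap between treated and untreated arrays. MET8, for the later sirohaem steps, passed in no strain (0.33 ± 0.14, 0.28 ± 0.14 and 0.19 ± 0.14). MET5 rose by 0.33 ± 0.05 in wild type and 0.24 ± 0.05 in C406A, with 0.15 ± 0.05 (adjusted p = 0.0665) in C403A. MET10 was at 0.12 ± 0.08, 0.11 ± 0.08 and 0.17 ± 0.08 and likewise passed in none. Several of these calls were fragile. The MET14 call in wild type was lost with any other scaling and without any 1 wild-type array (log2 0.21 to 0.24, adjusted p up to 0.0703). In C403A the MET14 call was lost with scaling to hybridization controls or the compared groups alone. In C406A the MET14 call was lost without either C406A untreated array or C406A MMS array 1 (log2 0.21 to 0.26, adjusted p up to 0.0913). The MET22 call in wild type was lost with scaling to hybridization controls. In C403A the MET22 call was lost with the values as deposited, scaling to hybridization controls or the compared groups alone and without C403A MMS array 1 (log2 0.26, adjusted p up to 0.0802). The MET1 call in C403A was lost with the compared groups alone. The MET5 call in wild type was lost with the values as deposited or scaling to hybridization controls. In C406A the MET5 call was lost with median scaling and without C406A untreated array 1 (log2 0.20, adjusted p up to 0.0702).

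Sulfide is joined to O-acetylhomoserine, made by Met2 from homoserine, in the reaction of Met17. MET2 (YNL277W) went from 143 and 129 to 487 and 466 in wild type, from 173 and 187 to 558 and 622 in C403A and from 149 and 162 to 518 and 503 in C406A. MET2 rose most of the biosynthetic genes, 3.51-fold in wild type, 3.28-fold in C403A and 3.29-fold in C406A (1.81 ± 0.10, 1.71 ± 0.10 and 1.72 ± 0.10 on the log2 scale, adjusted p = 5.77e-06, 1.25e-05 and 1.55e-05). All its treated arrays stood above all its untreated arrays. MET17 rose by 0.31 ± 0.05, 0.24 ± 0.05 and 0.17 ± 0.05. The remaining 4 genes of this step passed in no strain. MET6 encodes the cobalamin-independent methionine synthase that makes methionine from homocysteine, and it was at 0.12 ± 0.08, 0.00 ± 0.08 and 0.20 ± 0.08 (adjusted p = 0.285, 1 and 0.0969). MET13, a methylenetetrahydrofolate reductase gene that supplies the methyl group, was at 0.35 ± 0.13, 0.13 ± 0.13 and 0.39 ± 0.13 and passed in no single strain. In the mean of the strains MET13 rose (0.29 ± 0.07, adjusted p = 0.00897). MET12, the other reductase gene, and MET7, which encodes a folylpolyglutamate synthetase, were at -0.04 and 0.00 in the mean (adjusted p = 0.661 and 0.935). The MET17 call in wild type was lost with any other scaling. In C403A the MET17 call was lost with any other scaling or the compared groups alone and without C403A MMS array 2 (log2 0.21, adjusted p up to 0.0729). In C406A the MET17 call was lost with median scaling, scaling to hybridization controls, no trend or the compared groups alone and without either C406A untreated array or C406A MMS array 1 (log2 0.11 to 0.19, adjusted p up to 0.169).

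In the homoserine branch the entry step moved and the later steps did not pass. HOM3 (YER052C) went from 3228 and 3249 to 4501 and 4412 in wild type, from 3166 and 2990.0 to 3706 and 3886 in C403A and from 3205 and 3147 to 4244 and 4309.5 in C406A. HOM3 encodes aspartate kinase, the committed step toward threonine and methionine, and rose by 0.46 ± 0.05, 0.30 ± 0.05 and 0.43 ± 0.05 (adjusted p = 0.000122, 0.00314 and 0.000322) with no overlap between groups. HOM2, the aspartate semialdehyde dehydrogenase gene, was at 0.06 ± 0.05, 0.01 ± 0.05 and 0.02 ± 0.05, and HOM6, the homoserine dehydrogenase gene, at -0.02 ± 0.04, -0.03 ± 0.04 and -0.08 ± 0.04. Neither passed in any strain (lowest adjusted p = 0.164). The HOM3 call in wild type was lost with scaling to hybridization controls. In C403A the HOM3 call was lost with any other scaling or the compared groups alone.

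Transsulfuration moves sulfur between homocysteine and cysteine through cystathionine. The gene for the direction toward homocysteine that rose most was STR3, which encodes cystathionine beta-lyase. STR3 (YGL184C) went from 616 and 556 to 1454 and 1445 in wild type, from 682 and 618 to 1388 and 1207 in C403A and from 623 and 618 to 1441 and 1490.3 in C406A. Its rises were 1.31 ± 0.09, 0.996 ± 0.09 and 1.24 ± 0.09 (adjusted p = 1.47e-05, 0.000165 and 3.32e-05), with all treated arrays above all untreated ones. STR2, for cystathionine gamma-synthase in the same direction, passed in no single strain (0.42 ± 0.18, 0.19 ± 0.18 and 0.25 ± 0.18). In the direction toward cysteine, CYS4 (cystathionine beta-synthase) rose by 0.14 ± 0.04, 0.17 ± 0.04 and 0.21 ± 0.04. CYS3 (cystathionine gamma-lyase) rose by 0.33 ± 0.04 in wild type and 0.16 ± 0.04 in C406A, with 0.11 ± 0.04 (adjusted p = 0.117) in C403A. With median scaling the sign of CYS4 turned in every strain and that of CYS3 in C406A. The CYS4 call in wild type was lost with any other scaling, no trend or the compared groups alone and without either wild-type untreated array or wild-type MMS array 1 (log2 0.12 to 0.15, adjusted p up to 0.129). In C403A the CYS4 call was lost with any other scaling, no trend or the compared groups alone and without C403A untreated array 2 or either C403A MMS array (log2 0.15 to 0.19, adjusted p up to 0.121). In C406A the CYS4 call was lost with median scaling or scaling to hybridization controls and without C406A untreated array 2 (log2 0.19, adjusted p up to 0.0565). The CYS3 call in wild type was lost with any other scaling. In C406A the CYS3 call was lost with median scaling, scaling to hybridization controls, no trend or the compared groups alone and without either C406A untreated array or C406A MMS array 1 (log2 0.12 to 0.20, adjusted p up to 0.184).

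SAM is made from methionine by the near-identical synthetases Sam1 and Sam2, and homocysteine can be methylated by Sam4 with SAM or by Mht1 with S-methylmethionine. Of the synthetase genes, SAM1 was at -0.18 ± 0.06, -0.12 ± 0.06 and -0.13 ± 0.06 and passed in no strain. In the mean of the strains SAM1 fell (-0.15 ± 0.04, adjusted p = 0.00862). That call was lost with the values as deposited or scaling to hybridization controls. SAM2 was at -0.09 ± 0.07, 0.06 ± 0.07 and 0.21 ± 0.07 and passed, upward, in C406A (adjusted p = 0.0478). A probe set annotated with both genes was left out, and the signal of either gene on the probes of the other cannot be told apart from its own. SAM4 was at 0.12 ± 0.06, 0.10 ± 0.06 and 0.06 ± 0.06. MHT1 (YLL062C) went from 106 and 167 to 211 and 221 in wild type, from 86.1 and 156 to 226 and 239 in C403A and from 159.6 and 137 to 222 and 173 in C406A. MHT1 rose in C403A (1.001 ± 0.28, adjusted p = 0.0402). Its untreated arrays were far apart in wild type and C403A. The other strains did not pass (0.70 ± 0.28, adjusted p = 0.0848 in wild type and 0.40 ± 0.28 (adjusted p = 0.33) in C406A). The MHT1 call in C403A was lost with scaling to hybridization controls, no filter, no trend or the compared groups alone and without any 1 array other than wild-type untreated arrays 1 and 2, C403A untreated array 2 and C406A MMS arrays 1 and 2 (log2 0.57 to 1.04, adjusted p up to 0.211). The SAM2 call in C406A was lost with median scaling, scaling to hybridization controls, no filter, no trend or the compared groups alone and without either C403A MMS array or any 1 C406A array (log2 0.17 to 0.25, adjusted p up to 0.219).

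Among the permeases, MUP3 rose in each strain. MUP3 (YHL036W) went from 88.1 and 80.9 to 164 and 174 in wild type, from 95.4 and 87.2 to 141 and 139 in C403A and from 79.1 and 108 to 186 and 186 in C406A. MUP3 encodes a low-affinity methionine permease, and its changes were 1.004 ± 0.15, 0.62 ± 0.15 and 1.01 ± 0.15 (adjusted p = 0.000847, 0.0215 and 0.00135), with treated above untreated arrays throughout. MUP1, the high-affinity methionine permease gene, rose by 0.36 ± 0.08 (adjusted p = 0.00688) in wild type and 0.31 ± 0.08 (adjusted p = 0.0198) in C406A and was at 0.12 ± 0.08 (adjusted p = 0.345) in C403A. MMP1, for S-methylmethionine uptake, fell in wild type (-0.30 ± 0.10, adjusted p = 0.0488) and was at 0.11 ± 0.10 and -0.10 ± 0.10 in the mutants, which did not pass. MMP1 and MHT1 are neighbours on the chromosome. With the 40th percentile floor MUP3 still passed in wild type and C406A, but at 0.19 and 0.33. The MUP3 call in C403A was lost with scaling to hybridization controls, the 40th percentile floor or the compared groups alone and without any 1 C403A array (log2 0.55 to 0.68, adjusted p up to 0.11). The MUP1 call in wild type was lost with median scaling or scaling to hybridization controls and without wild-type untreated array 2 (log2 0.26, adjusted p up to 0.0545). In C406A the MUP1 call was lost with median scaling and without any 1 C406A array (log2 0.27 to 0.35, adjusted p up to 0.123). The MMP1 call in wild type was lost with any other scaling, no filter or the compared groups alone and without any 1 array other than wild-type untreated array 2 and C406A MMS arrays 1 and 2 (log2 -0.37 to -0.19, adjusted p up to 0.264).

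SAM3, the SAM permease gene, had 5 probe sets, and they disagreed. The array annotation gives all of them to SAM3 (YPL274W), but whether each measures that transcript is not settled by the sources used here, and some may detect another locus. On the brightest, the signal annotated as SAM3 went from 1697 and 1829 to 2485 and 2511 in wild type, from 2388 and 1716 to 2729.8 and 2614 in C403A and from 2019.6 and 1983 to 2379 and 2366 in C406A. The change there was 0.50 ± 0.12, 0.40 ± 0.12 and 0.25 ± 0.12, and it passed in wild type alone (adjusted p = 0.0107, 0.053 and 0.173). The SAM3 call in wild type was lost with scaling to hybridization controls or the mean of probe sets and without wild-type untreated array 1 or wild-type MMS array 1 (log2 0.45 to 0.51, adjusted p up to 0.064). The other probe sets were fitted among 6047 probe sets of a single gene, a fit added after the values were seen. One of them rose in all strains, by 0.46, 0.55 and 0.30 (adjusted p = 0.00363, 0.00386 and 0.0368). Another passed in none, at 0.12, -0.01 and 0.25 (lowest adjusted p = 0.139). Yet another passed only in the mean of the strains (0.47, adjusted p = 0.0481), and the last was at or under the floor on 5 arrays. The wild-type count of members above includes SAM3 through its brightest probe set, so neither that call nor the direction of the SAM3 transcript is settled.

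**Figure D2:**
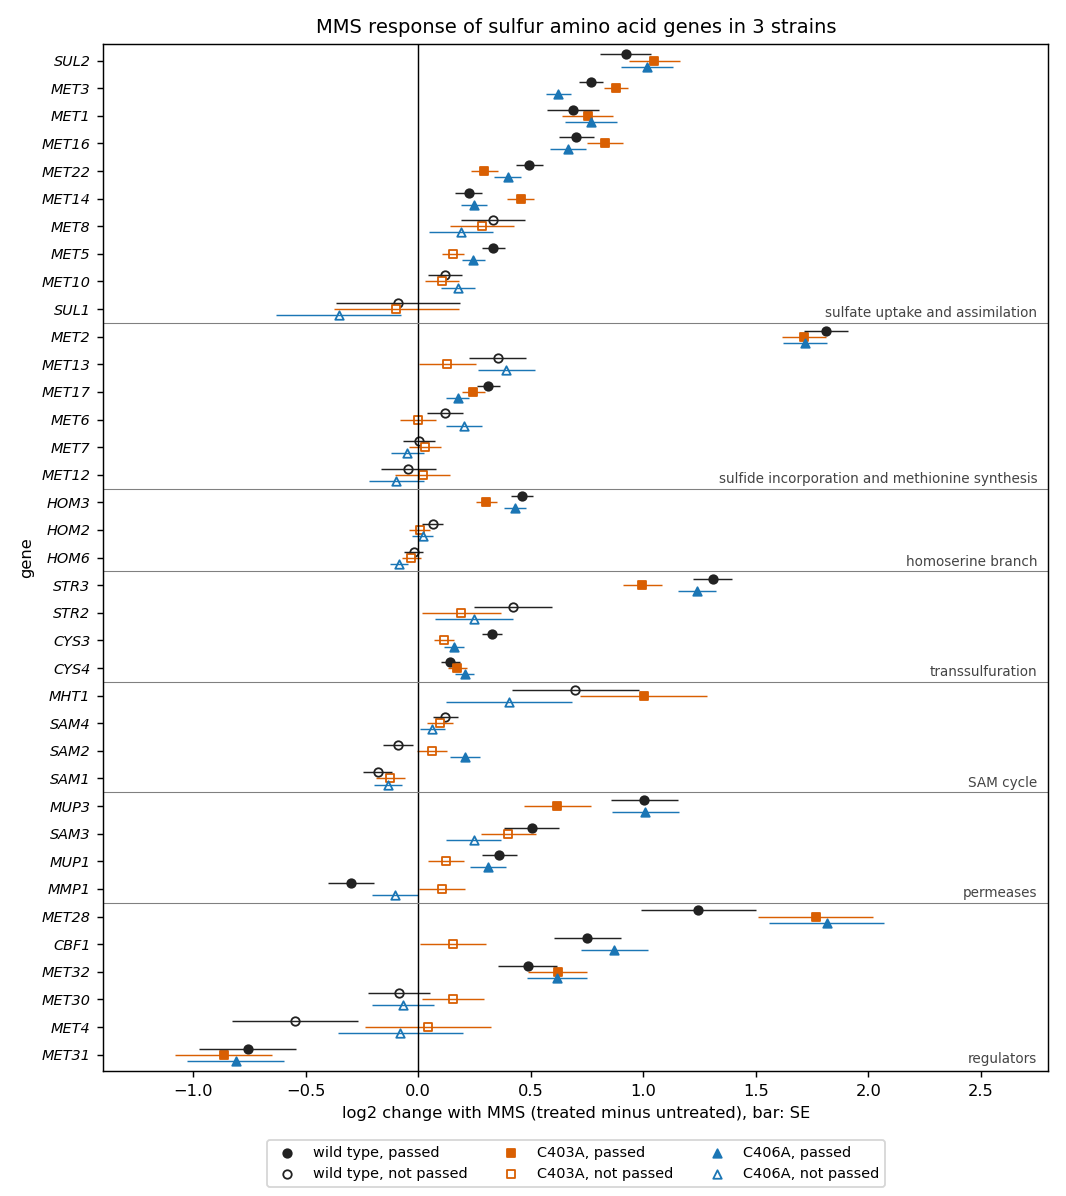
Log2 change with MMS (x axis, treated minus untreated, bar: standard error of the fit) for each gene (y axis, by role) in wild type, C403A and C406A; filled symbols passed at an adjusted p under 0.05. MET2 or MET28 lies farthest to the right in each strain, and MET31 lies to the left of 0 in all strains.

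The regulators divided. MET28 and MET32 rose in every strain, MET31 fell in every strain, CBF1 rose in wild type and C406A, and MET4 and MET30 passed in none. MET28 (YIR017C) went from 51.6 and 80.1 to 131 and 177 in wild type, from 90.0 and 135 to 376 and 373 in C403A and from 71.8 and 94.4 to 295 and 284 in C406A. MET28 encodes the basic leucine zipper cofactor that stabilizes Met4 on DNA. Both treated arrays stood above both untreated arrays in each strain, with rises of 1.24 ± 0.26, 1.77 ± 0.26 and 1.81 ± 0.26 (2.37-fold, 3.4-fold and 3.52-fold, adjusted p = 0.00492, 0.00223 and 0.00108). The MET28 call in wild type was lost with the 40th percentile floor. In C403A the MET28 call was lost with the compared groups alone. With the 40th percentile floor the changes were 0.13, 1.34 and 0.96.

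MET31 and MET32 encode related zinc-finger proteins that recruit Met4 to many of the same promoters, and their transcripts moved in opposite directions. MET31 (YPL038W) went from 282 and 268 to 129 and 205 in wild type, from 283 and 266 to 157 and 144 in C403A and from 251 and 277 to 179 and 126 in C406A. Treated arrays lay below untreated arrays in every strain, although the treated arrays of wild type and C406A were spread (-0.76 ± 0.22, -0.86 ± 0.22 and -0.81 ± 0.22, adjusted p = 0.0234, 0.025 and 0.0237). MET32 (YDR253C) went from 103 and 87.9 to 131 and 135 in wild type, from 129 and 111 to 184 and 182 in C403A and from 93.6 and 111 to 158 and 154 in C406A. MET32 was higher on treated than on untreated arrays in every strain (0.49 ± 0.13, 0.62 ± 0.13 and 0.62 ± 0.13, adjusted p = 0.0194, 0.0135 and 0.00955). Averaged over strains the changes were -0.81 ± 0.12 (adjusted p = 0.000565) for MET31 and 0.57 ± 0.08 (adjusted p = 0.000237) for MET32, and both kept their direction and their call in the mean under all other settings and without any 1 array. The size did not hold: with the 40th percentile floor the mean change of MET32 was 0.13, and in wild type it was 0, both groups lying at that floor. As deposited the mean changes were -0.46 for MET31 and 0.89 for MET32. Within single strains the calls were less stable. The MET31 call in wild type was lost with the values as deposited or the compared groups alone and without either wild-type untreated array or wild-type MMS array 1 (log2 -0.79 to -0.42, adjusted p up to 0.166). In C403A the MET31 call was lost with the values as deposited or no filter and without any 1 C403A array (log2 -0.93 to -0.80, adjusted p up to 0.121). In C406A the MET31 call was lost with the values as deposited, scaling to hybridization controls or the compared groups alone and without either C406A untreated array or C406A MMS array 2 (log2 -0.88 to -0.56, adjusted p up to 0.155). The MET32 call in wild type was lost with the values as deposited, scaling to hybridization controls, the 40th percentile floor or the compared groups alone and without wild-type untreated array 2 or either wild-type MMS array (log2 0.37 to 0.51, adjusted p up to 0.118). In C403A the MET32 call was lost with scaling to hybridization controls or the compared groups alone and without C403A untreated array 2 or either C403A MMS array (log2 0.51 to 0.63, adjusted p up to 0.082). In C406A the MET32 call was lost with the 40th percentile floor and without C406A untreated array 1 (log2 0.49, adjusted p up to 0.0729).

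CBF1 encodes the helix-loop-helix protein that binds the core site of many sulfur genes and also the centromere. CBF1 (YJR060W) went from 279.5 and 255 to 425 and 476 in wild type, from 390.1 and 300.1 to 346 and 419 in C403A and from 267 and 244 to 501 and 434 in C406A. Treated arrays lay above untreated arrays in wild type and C406A, whose rises were 0.75 ± 0.15 (adjusted p = 0.00407) and 0.87 ± 0.15 (adjusted p = 0.00296), while in C403A the groups overlapped (0.15 ± 0.15, adjusted p = 0.557). MET4 (YNL103W) went from 413 and 398 to 184 and 416 in wild type, from 511 and 479 to 503 and 515 in C403A and from 501 and 472 to 465 and 455 in C406A. MET4, the activator gene itself, passed in no strain (-0.55 ± 0.28, 0.04 ± 0.28 and -0.08 ± 0.28, adjusted p = 0.163, 0.949 and 0.869). Its wild-type value rested on MMS array 1, which stood at less than its partner: without that array the change was 0.04 (adjusted p = 0.814), and without MMS array 2 it was -1.14 (adjusted p = 0.000225). MET30 (YIL046W) went from 160.1 and 163 to 151 and 153 in wild type, from 169 and 192 to 231 and 174 in C403A and from 163 and 152 to 147 and 153 in C406A. The MET30 gene for the inhibitor of Met4 passed in no strain (-0.09 ± 0.14, 0.16 ± 0.14 and -0.07 ± 0.14, lowest adjusted p = 0.513). With the values as deposited its change was 0.16, 0.47 and 0.39, where the median of all genes was itself 0.24, 0.27 and 0.43. MET30 thus lay below that median in wild type and C406A and above it in C403A.

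**Figure D3:**
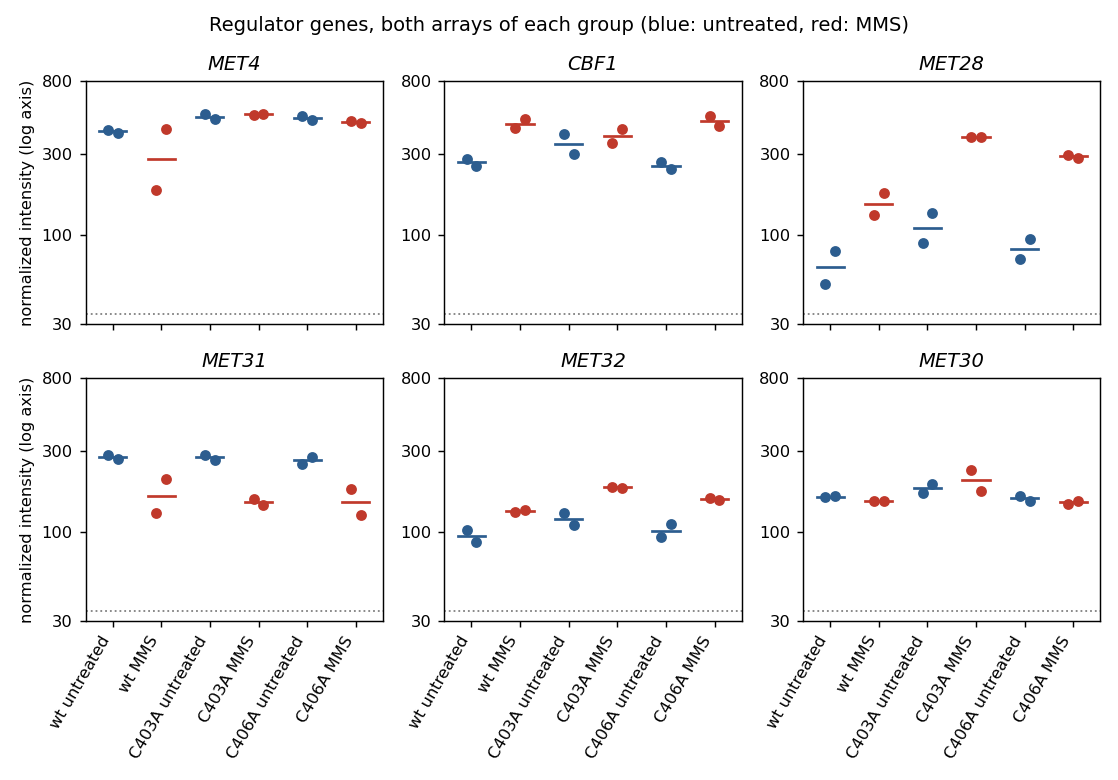
Normalized intensity (log axis) of the 6 regulator genes on both arrays of each group, with untreated in blue and MMS in red; bars are geometric means and the dotted line is the floor. MET28 and MET32 are higher and MET31 lower on MMS arrays in all strains, and the MMS arrays of wild type differ for MET4.

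Genes of linked steps outside the 37 were examined from a list of 36, of which 33 were tested. Their shares of calls lay near those of all genes: 6 rose and 5 fell in wild type, 3 and 3 in C403A and 3 and 4 in C406A, with medians of 0.03, -0.02 and -0.01. In wild type this was 18.2% up and 15.2% down (all genes 19.1% and 13.8%), in C403A 9.09% and 9.09% (all genes 8.42% and 7.13%), and in C406A 9.09% and 12.1% (all genes 12.7% and 11.2%). The genes named next are single genes and do not stand for the list. Of the genes of glutathione synthesis, a use of cysteine, GSH1, which encodes the rate-limiting gamma-glutamylcysteine synthetase, rose by 0.86 ± 0.11, 0.94 ± 0.11 and 0.99 ± 0.11, and GSH2, for glutathione synthetase, by 0.25 ± 0.06, 0.22 ± 0.06 and 0.21 ± 0.06. YCT1, a cysteine transporter gene, rose by 1.14 ± 0.21 in wild type and 1.36 ± 0.21 in C406A and was at 0.50 ± 0.21 in C403A (adjusted p = 0.143). MIS1, a mitochondrial C1-tetrahydrofolate synthase gene, fell by 0.43 ± 0.07, 0.37 ± 0.07 and 0.39 ± 0.07, and SAH1, which clears the product of SAM-dependent methylation, fell in wild type and C406A (-0.18 ± 0.05 and -0.29 ± 0.05).

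Whether the MMS response of the pathway differed between a TFIIH mutant and wild type was tested directly as the difference between responses. For C403A against wild type 0 of 37 members passed (limma), where 0.317% of all genes passed upward and 0.671% downward. At an unadjusted p under 0.05 were 8 of 37 members and 871 of all 5368 tested genes. For C406A 0 passed, and of all genes 0% passed upward and 0% downward. Here 2 of 37 members and 451 of all 5368 tested genes were at an unadjusted p under 0.05. The difference for MET2 was -0.10 ± 0.14 in C403A and -0.09 ± 0.14 in C406A, and for MET28 0.52 ± 0.36 and 0.57 ± 0.36. CBF1, called in wild type and not in C403A, differed by -0.60 ± 0.21 (adjusted p = 0.205), so that a difference between those strains was not shown. MUP1, MET5 and CYS3, also not called in C403A, differed by -0.24 ± 0.11 (adjusted p = 0.336), -0.18 ± 0.07 (adjusted p = 0.25) and -0.21 ± 0.06 (adjusted p = 0.142). SAM3 (0.50 in wild type and 0.40 in C403A) and MMP1 (-0.30 and 0.11) were likewise called in wild type and not in C403A. The difference for MMP1 went the other way, at 0.41, and did not pass. Without wild-type MMS array 2, 1 member passed in each mutant, MET4, whose wild-type MMS value then came from array 1 alone. Across the 37 members the responses of wild type and C403A correlated with r = 0.89, of wild type and C406A with r = 0.94 and of the mutants with r = 0.91, against 0.67, 0.77 and 0.66 over all tested genes. These are correlations across genes, and genes measured together on an array are not independent replicates.

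The mutants were then compared with wild type at the same treatment. Without MMS 3 members were higher and 3 lower in C403A, against 9.17% and 4.97% of all genes. MET2 (0.40 ± 0.10, adjusted p = 0.0255), SUL2 (0.41 ± 0.11, adjusted p = 0.0401) and CYS3 (0.26 ± 0.04, adjusted p = 0.00557) were higher, and MET6 (-0.46 ± 0.08, adjusted p = 0.00666), MET14 (-0.21 ± 0.06, adjusted p = 0.0421) and MET5 (-0.19 ± 0.05, adjusted p = 0.034) were lower. In untreated C406A 0 of 37 passed (limma), where 1.83% of all genes were higher and 0.876% lower. Members at an unadjusted p under 0.05 numbered 7 of 37 there, against 923 of all 5368 tested genes. The share of members called in C403A was near that of all genes. With the values as deposited or with the compared groups alone 0 members passed in C403A, with median scaling 2 higher and 1 lower, and on the hybridization controls 0 and 1. MET2 lost its call without wild-type untreated array 2 or C403A untreated array 2 (log2 0.33 to 0.35, adjusted p up to 0.125). MET5 lost it without either wild-type untreated array or any 1 C403A array (log2 -0.19, adjusted p up to 0.11). SUL2 lost it without any 1 array other than C403A MMS arrays 1 and 2 and C406A MMS arrays 1 and 2 (log2 0.38 to 0.45, adjusted p up to 0.142), and MET14 without any 1 array other than C403A untreated array 2 and C406A MMS arrays 1 and 2 (log2 -0.22 to -0.15, adjusted p up to 0.15).

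With MMS 3 members were higher and 6 lower in C403A than in wild type, against 7.47% and 6.09% of all genes. The share higher was 8.11% of the members, near that of all genes. This comparison uses the same treated arrays as the MMS responses above. Higher were MET28 (1.30 ± 0.26, adjusted p = 0.0109), SUL2 (0.54 ± 0.11, adjusted p = 0.0143) and MET32 (0.46 ± 0.13, adjusted p = 0.0465), and lower were MET6 (-0.58 ± 0.08, adjusted p = 0.00216), MET13 (-0.47 ± 0.13, adjusted p = 0.037), MUP1 (-0.40 ± 0.08, adjusted p = 0.011), MET5 (-0.37 ± 0.05, adjusted p = 0.00187), MET22 (-0.36 ± 0.06, adjusted p = 0.00478) and HOM3 (-0.23 ± 0.05, adjusted p = 0.0124). MET6 (YER091C), the methionine synthase gene, was at 4869.6 and 4832 in treated wild type, 2962 and 3569.6 in treated C403A and 4361 and 4274 in treated C406A. Without treatment it was at 4584 and 4350.2, 3397 and 3115 and 3719 and 3780.2 in the same order. C403A lay below wild type in both conditions with no overlap, and C406A lay between. Of all genes, 23.5% lay below without overlap in untreated C403A and 28.4% in treated C403A. MET13 (YGL125W) was at 1085 and 1003 in treated wild type, 722 and 785 in treated C403A and 973 and 942 in treated C406A, from 860.0 and 776, 802 and 592 and 748 and 712 untreated.

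In C406A with MMS 1 member passed, CYS3, which was lower (-0.20 ± 0.04, adjusted p = 0.0388), where 2.72% of all genes were higher and 1.81% lower. MET28 was at 0.93 ± 0.26 (adjusted p = 0.0796) there and MET6 at -0.17 ± 0.08 (adjusted p = 0.268). In C403A with MMS, MET6, MET5, MET22, MUP1, HOM3 and MET13 lay below wild type under all 9 other settings and without any 1 array. The size of these differences moved with scaling. The median of all genes was 0.08 as deposited and -0.27 on the hybridization controls. As deposited 2 members passed, both higher, and with the compared groups alone 2. On the hybridization controls 1 was higher and 6 were lower, and with median scaling 3 and 3. MET28 lost its call without wild-type MMS array 1 or either C403A MMS array (log2 1.08 to 1.30, adjusted p up to 0.078). SUL2 lost it without either wild-type MMS array or C403A MMS array 1 (log2 0.42 to 0.56, adjusted p up to 0.11). MUP1 lost it without wild-type MMS array 1 or C403A MMS array 1 (log2 -0.40 to -0.31, adjusted p up to 0.0799) and HOM3 without wild-type MMS array 1 or C403A MMS array 1 (log2 -0.22 to -0.20, adjusted p up to 0.0875). MET13 lost it without any 1 array other than wild-type untreated arrays 1 and 2 and C403A untreated arrays 1 and 2 (log2 -0.53 to -0.41, adjusted p up to 0.193), and MET32 without any 1 array other than wild-type untreated arrays 1 and 2 and C403A untreated arrays 1 and 2 (log2 0.44 to 0.49, adjusted p up to 0.182). The CYS3 call in C406A was lost without any 1 array other than C403A untreated arrays 1 and 2 and C406A MMS array 1 (log2 -0.20 to -0.16, adjusted p up to 0.214).

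The mutants themselves were set against each other with MMS, a comparison added after the values were seen. MET6 (-0.41 ± 0.08, adjusted p = 0.0221), MUP1 (-0.34 ± 0.08, adjusted p = 0.0368) and MET22 (-0.23 ± 0.06, adjusted p = 0.0478) were lower and CYS3 (0.25 ± 0.04, adjusted p = 0.0171) and MET14 (0.23 ± 0.06, adjusted p = 0.0495) higher in C403A. These were 5 of 37 members, where 3.52% of all genes were higher and 3.17% lower. Each of these 5 calls was lost with median scaling, with the values as deposited or with the compared groups alone. On the hybridization controls 11 members were lower, none higher, and CYS3 and MET14 turned to -0.11 and -0.12. Without C403A MMS array 1 or C406A MMS array 2, 0 members passed, and MET6 did not pass without C403A MMS array 1 or either C406A MMS array (log2 -0.42 to -0.27, adjusted p up to 0.0889). CYS3 lost its call without either C403A MMS array or C406A MMS array 2 (log2 0.21 to 0.26, adjusted p up to 0.0884) and MUP1 without any 1 array other than wild-type untreated arrays 1 and 2, C403A untreated arrays 1 and 2 and C403A MMS array 2 (log2 -0.36 to -0.25, adjusted p up to 0.192). MET14 lost it without any 1 array other than C403A untreated arrays 1 and 2 (log2 0.19 to 0.26, adjusted p up to 0.223), and MET22 without any 1 array other than C403A untreated arrays 1 and 2 (log2 -0.27 to -0.20, adjusted p up to 0.207).

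**Figure D4:**
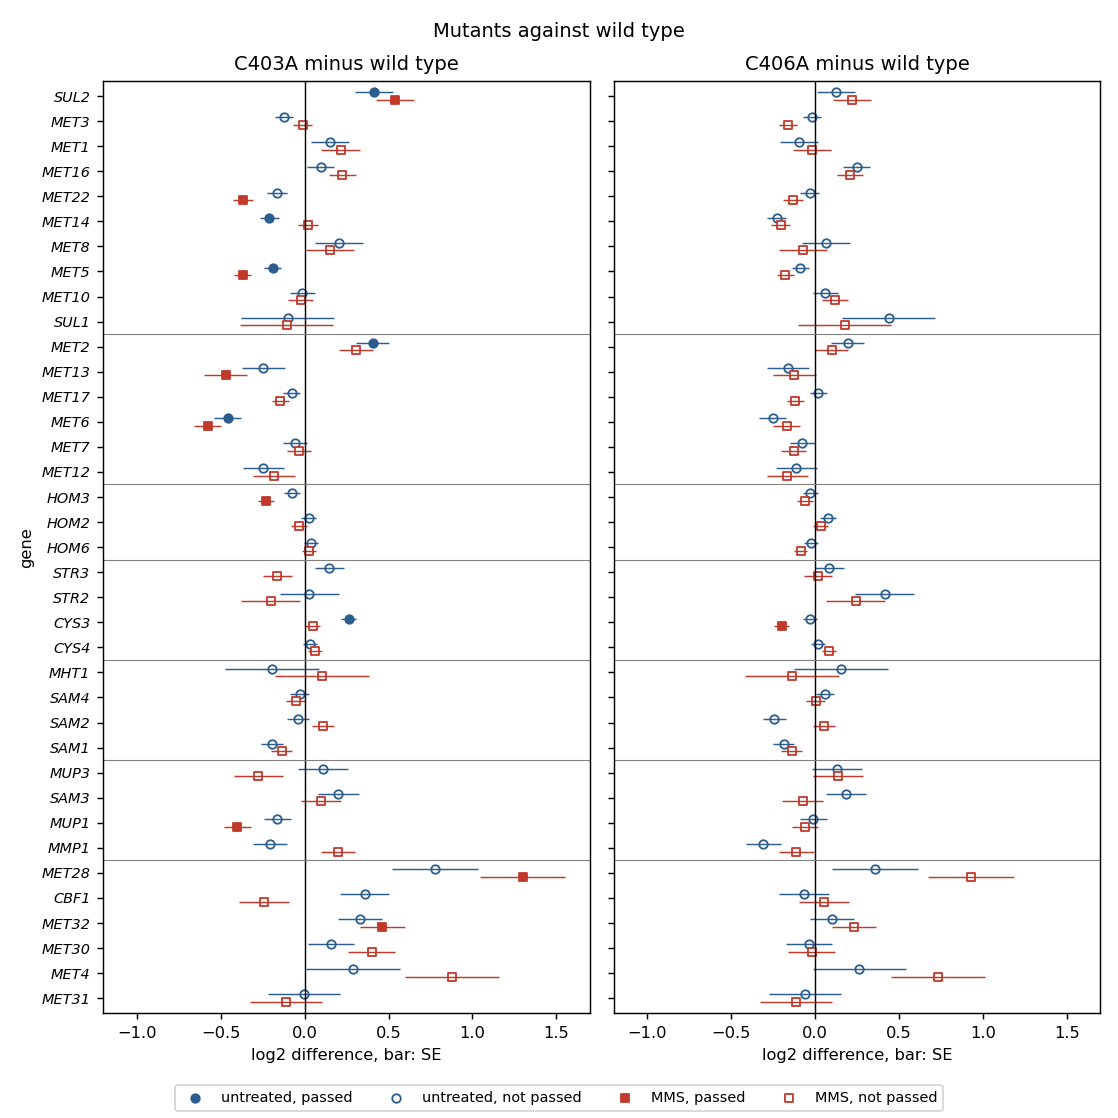
Log2 difference of C403A (left) and C406A (right) from wild type (x axis, bar: standard error of the fit) for each gene (y axis, by role) without MMS (blue) and with MMS (red); filled symbols passed. In C403A with MMS, MET28, SUL2 and MET32 lie to the right and MET6, MET13, MUP1, MET5, MET22 and HOM3 to the left, and in C406A 1 filled symbol, CYS3 with MMS, is seen.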

How the data were processed

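The members and gene lists were chosen with earlier results of these data known. The authors deposited a table of one-colour signal intensity, 9335 probe sets on each of 12 arrays, on a linear scale with 8.95% of values below 0. The chip type is from the deposited scanner headers, and the summarization software and any scaling are not given in the sources used here. The table held 0 columns of other samples. Since array medians differed by up to 1.69-fold, probe sets other than 60 controls were quantile normalized, floored at the 20th percentile (34.5) and put on a log2 scale. The platform annotation gave 6504 of them a single gene (1 symbol), 328 several genes and 2503 no gene. The brightest of a gene was used, and genes above the floor on fewer than 2 arrays were left out (288). Locus tags and neighbours are from RefSeq's R64 table.

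Group means were fitted without a block by limma's lmFit and moderated by eBayes with a trend (6 residual degrees of freedom, limma 3.58.1, R 4.3.3). The fit was tested on simulated data. Genes given on every array were the regulators, the 12 others called with the largest MMS change and the 6 with the largest mutant difference. As alternatives, arrays were scaled to their medians or to 9 probe sets of hybridization controls, or used as deposited. Others were no floor, the 40th percentile floor, no filter, no trend, the mean of probe sets, the compared groups alone and leaving out each array. Figures were drawn with matplotlib 3.10.9.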

Additional observations from a re-analysis of the deposited data

How the results depend on the processing

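The number of members called was 21 for the wild-type MMS response, 16 for the C403A response, 20 for the C406A response, 27 for the mean response, 6 for untreated C403A against wild type, 0 for untreated C406A against wild type, 9 for treated C403A against wild type, 1 for treated C406A against wild type, 0 for the C403A difference of responses, 0 for the C406A difference of responses and 5 for treated C403A against C406A. Median scaling gave 3 for untreated C403A against wild type, 0 for treated C406A against wild type and 0 for treated C403A against C406A. The values as deposited gave 0 for untreated C403A against wild type, 2 for treated C403A against wild type, 0 for treated C406A against wild type and 0 for treated C403A against C406A. Scaling to hybridization controls gave 10 for the wild-type MMS response, 8 for the C403A response, 1 for untreated C403A against wild type, 0 for treated C406A against wild type and 11 for treated C403A against C406A. The 40th percentile floor gave 2 for treated C406A against wild type, 1 for the C403A difference of responses and 10 for treated C403A against C406A. No filter gave 1 for untreated C406A against wild type and 2 for treated C406A against wild type. No trend gave 0 for treated C406A against wild type and 1 for treated C403A against C406A. The compared groups alone gave 6 for the C403A response, 0 for untreated C403A against wild type, 2 for treated C403A against wild type, 0 for treated C406A against wild type and 0 for treated C403A against C406A. Leaving out an array gave 15 to 23 for the wild-type MMS response, 10 to 16 for the C403A response, 12 to 22 for the C406A response, 23 to 27 for the mean response, 2 to 6 for untreated C403A against wild type, 0 to 1 for untreated C406A against wild type, 3 to 9 for treated C403A against wild type, 0 to 1 for treated C406A against wild type, 0 to 1 for the C403A difference of responses, 0 to 1 for the C406A difference of responses and 0 to 7 for treated C403A against C406A. No other setting moved a count by over 1.5 times. Of 1008 gene values under the other settings, 825 kept their direction and side of the threshold, 163 lost the call and 20 changed sign. Leaving out arrays gave 1144, 195 and 4 of 1344, and 1 gained a call. With median scaling the sign turned for CYS4 -0.075 in the wild-type MMS response, CYS4 -0.019 in the C403A response, CYS3 -0.065, CYS4 -0.0018 and MET17 -0.0032 in the C406A response and CYS3 -0.0084 and CYS4 -0.032 in the mean response. With the values as deposited the sign turned for MET30 0.16 in the wild-type MMS response, MET30 0.39 and MET4 0.40 in the C406A response and SAM1 0.13 in the mean response. With scaling to hybridization controls the sign turned for CYS4 -0.15 in the wild-type MMS response, CYS4 -0.13, MET17 -0.054 and MET4 -0.048 in the C403A response, MET30 0.21 and MET4 0.22 in the C406A response, CYS3 -0.0098 in untreated C403A against wild type and CYS3 -0.11 and MET14 -0.12 in treated C403A against C406A. Leaving out an array turned the sign within ranges of CBF1 -0.035 to 0.34 in the C403A response, MET30 -0.047 to 0.36 in the C403A response, MET4 -0.0047 to 0.088 in the C403A response and MET4 -1.14 to 0.039 in the wild-type MMS response. The cause of these changes was not tested. No paired analysis was possible because the labels number no replicates, and no scan batch could serve as a block because all arrays were scanned on 1 day. Members near the floor, such as SUL1, MET28, MUP3 and MET32, are limited by signal over background.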
